A study of Rattus norvegicus with 3 samples.

Results

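The genes described here encode the machinery that stores neurotransmitter in synaptic vesicles, fuses the vesicles with the plasma membrane and retrieves their membrane afterwards. They were chosen by gene symbol, as all synaptotagmins, synaptotagmin-like proteins, synapsins, syntaxins, syntaxin-binding proteins, VAMPs, SNAP-25 family proteins, RIMS, complexin, SV2 and UNC13 genes, together with SYP, SYPL1, BSN, PCLO, ERC1, ERC2, NSF, NAPA, NAPB, NAPG, SNAP91, DNM1, AMPH, BIN1 and SYNJ1. Of 12771 entries in the expression table, 74 met this rule, and they carry 73 symbols because STX7 has 2 entries. SNAP25, SNAP23, BSN, RIMS1, UNC13A and SYT2 are also covered by the rule but were not analysed here.

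RNA was measured in the acellular supernatant of spinal cord from female Sprague Dawley rats aged 3 months. In both groups a laminectomy was made at T9, either alone (No-SCI) or with a moderate to severe contusion delivered by an impactor (SCI). Tissue just rostral to the injury, at T8, was taken 24 h later, digested with a cold active protease and centrifuged to remove cells. From the labels, No-SCI had 2 libraries and SCI had 1, but the study's methods give 2 animals per condition. Each entry has 1 value per group, an FPKM (read fragments counted per length of transcript and per size of library) estimated by the authors over the libraries of that group. There is therefore no spread between animals and no read count given behind a value, though the methods state that the libraries were reduced to equal numbers of reads, and no difference below could be set against replicate error or tested. A member counted as past 2-fold when its SCI value was at least 2 times its No-SCI value or at most 1/2 of it.

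A synaptic vesicle fuses when a SNARE on the vesicle, a VAMP, zippers together with syntaxin and a SNAP-25 type protein on the target membrane. Some synaptotagmins sense the calcium that triggers fusion, and complexins clamp and promote fusion. The active zone proteins RIM, Munc13, Bassoon, Piccolo and ELKS hold vesicles close to calcium channels. NSF and its SNAP adaptors take the spent SNARE complex apart, and dynamin, amphiphysin, synaptojanin and AP180 retrieve the membrane. Several relatives of these proteins do not act at synapses and instead carry out fusion between endosomes, lysosomes, Golgi and plasma membrane in all cells.

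Most members had a lower value in SCI than in No-SCI. The SCI value was lower for 57 of the 74 entries (77%, against 56.3% of all entries) and higher for 17 (against 43.7% of all entries). At least 2-fold lower values were found for 24 members (32.4%), against 12.1% of all entries, and at least 2-fold higher values for 5 members (6.76%), against 7.96% of all entries. The share at least 2-fold higher was thus close to that of the whole table, while the share at least 2-fold lower was above it. At the 1.3-fold minimum that the methods of the study state, 45 members were lower (60.8%, against 35.7% of all entries). Higher values at that minimum were found for 8 members (10.8%, against 24.6% of all entries). At 3-fold, 5 members were lower (6.76%, against 3.27% of all entries) and 1 was higher (1.35%, against 3.17% of all entries). Of the 29 members past 2-fold, 11 lost the call under another constant or scaling. Among them were NAPB, RIMS3, STXBP3, STXBP4, SYN3, SYT16 and SYTL5 with lower values and RIMS4, STX3 and SYTL1 with higher ones. NAPB, RIMS4, STX3 and SYTL1 lost it only with 1 added to every value, which shifts the ratios of low values most. On the log2 scale the SCI to No-SCI ratio had a median of −0.63 over the members and −0.12 over all entries.

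The members covered a wide range of levels. Their median level was 18.9 FPKM in No-SCI and 13.1 FPKM in SCI, beside medians of 17.2 and 15.6 FPKM for all entries, and 41 members lay above the median of all entries in No-SCI and 34 in SCI. BIN1, a membrane-bending relative of amphiphysin that is also abundant in oligodendrocytes and muscle, had the highest level, 1428 FPKM in No-SCI and 873 FPKM in SCI. The endosomal syntaxin STX8 followed with 415 and 560 FPKM, and then VAMP2, the main vesicle SNARE of brain synapses, with 251 and 128 FPKM. The lowest levels belonged to SYTL1 in No-SCI (1.58 FPKM) and to SYT10 in SCI (1.08 FPKM), both near 1, the lowest value in the table. No member was at exactly 1, and 72 of the 74 had a mean of both groups of at least 2 FPKM. In 53 members at least 1 value carries 7 significant digits, more than the 6 of a single Cuffdiff estimate. Whether such values are sums of several estimates is not stated in the sources used here. If they are, the levels of these members relative to other genes can depend on how many estimates were summed.

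**Figure D1:**
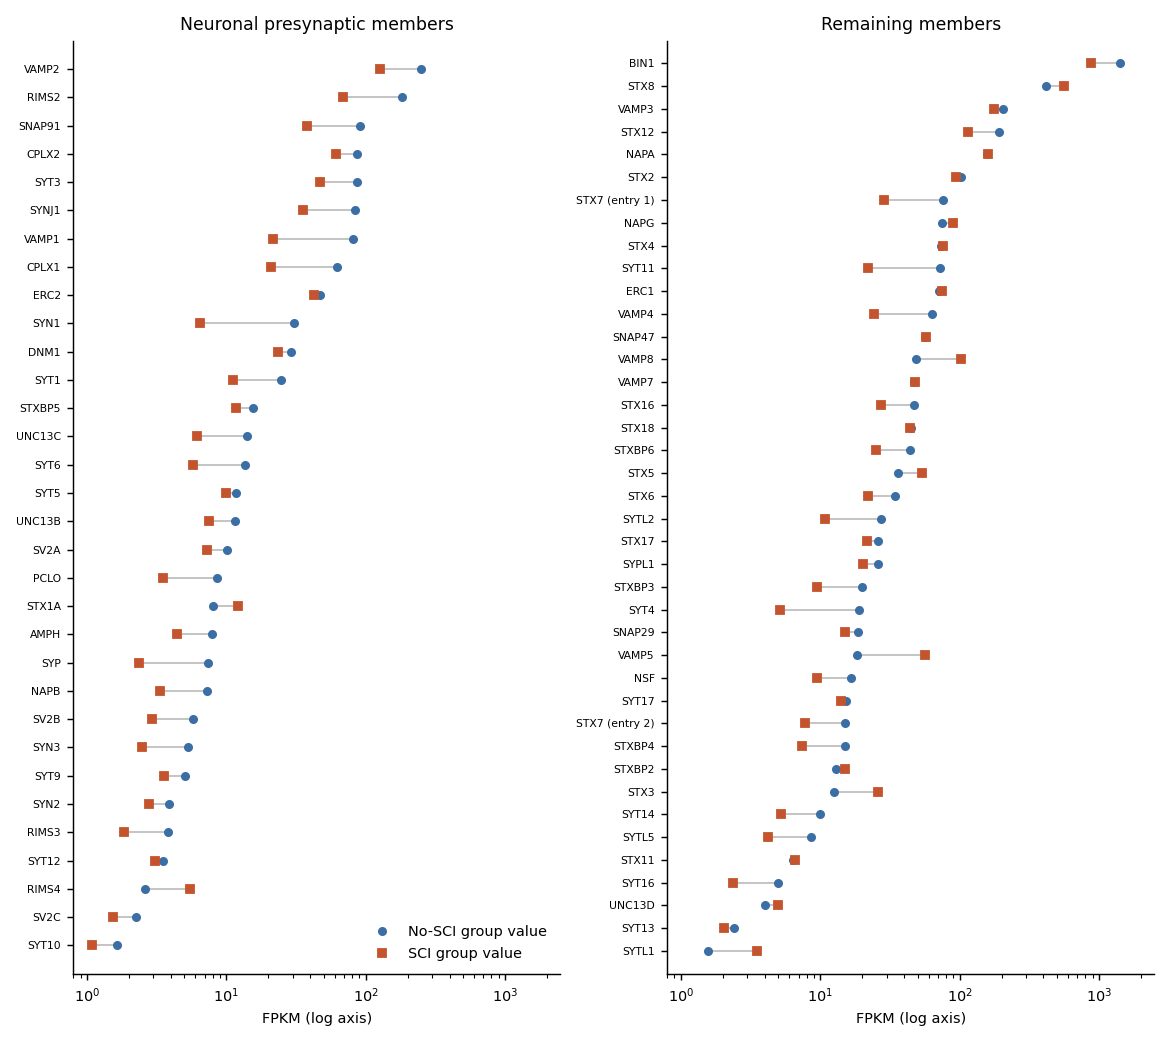
FPKM of 72 of the 74 member entries in No-SCI (blue circles) and SCI (red squares) on a log axis, with the members that act chiefly in transmitter release on the left and the remaining members on the right, each ordered by its No-SCI level. Each symbol is 1 group value with no error, and in the left panel the red square lies left of the blue circle for 30 of the 32 entries shown, the exceptions being STX1A and RIMS4.

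The members were divided by textbook function into 34 that act chiefly in neurotransmitter release and 40 remaining entries, which include the endosomal, lysosomal and Golgi SNAREs. Among the neuronal presynaptic members, 32 of 34 had a lower value in SCI, 15 of them (44.1%) at least 2-fold, and 1, RIMS4, was at least 2-fold higher. Their median log2 ratio was −0.98, and their summed level was 1242 FPKM in No-SCI and 620 FPKM in SCI. Of the 40 remaining entries, 25 were lower and 15 higher, with 9 (22.5%) at least 2-fold lower and 4 at least 2-fold higher, and the median log2 ratio was −0.26. Of all entries, 56.3% were lower in SCI, 12.1% at least 2-fold lower and 7.96% at least 2-fold higher. The neuronal members thus lay lower as a set. The remaining members had a median closer to that of all entries (−0.12). Their share at least 2-fold lower, 22.5%, was still above that of all entries. The lower values were found at all levels. Split by level in No-SCI, members at least 2-fold lower in SCI were 7 of 21 under 10 FPKM (33.3%, against 9.59% of all entries in that range), 9 of 32 between 10 and 50 FPKM (28.1%, against 14.4%) and 8 of 21 at 50 FPKM or more (38.1%, against 12.3%). At least 2-fold higher members numbered 2 under 10 FPKM (9.52%, against 14.2%), 3 between 10 and 50 FPKM (9.38%, against 5.24%) and 0 at 50 FPKM or more, where 2.99% of all entries were. Both divisions contain exceptions, since SYT4 and SYT11 are counted among the remaining members and had some of the lowest ratios.

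**Figure D2:**
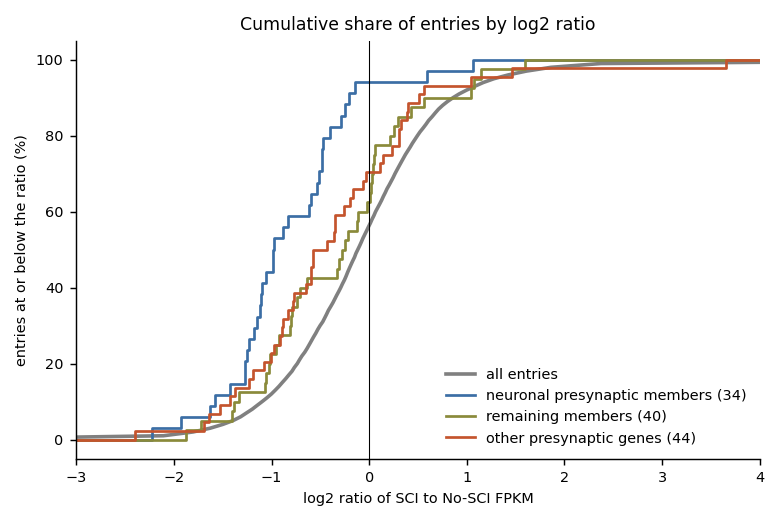
Cumulative share of entries (%) by log2 ratio of SCI to No-SCI FPKM, for all entries, the neuronal presynaptic members, the remaining members and a list of other presynaptic genes that are not members. The curve of the neuronal presynaptic members lies left of the others over most of its length, with a median of −0.98 against −0.12 for all entries.

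Synaptotagmins, a family that includes the calcium sensors of release, were lower in SCI for all 13 listed entries, beside 56.3% of all entries. Their median log2 ratio was −0.88, with a range from −1.87 to −0.12. Not every member of the family senses calcium. SYT1, the fast calcium sensor of forebrain synapses, had 24.7 FPKM in No-SCI and 11.2 FPKM in SCI, a log2 ratio of −1.15. SYT3 was the most abundant of the family, with 87.03 FPKM in No-SCI and 47.2 FPKM in SCI. SYT4 and SYT11, which lack an aspartate needed to bind calcium in their first C2 domain, had the lowest ratios of the family. SYT4 went from 19.0 FPKM in No-SCI to 5.18 FPKM in SCI, which is 3.66-fold lower, and SYT11 from 72.3 to 22.0 FPKM, which is 3.29-fold lower. SYT6 (13.7 and 5.73 FPKM) and SYT16 (4.94 and 2.35 FPKM) were the other members of the family past 2-fold. The ratios nearest 0 were those of SYT17 (−0.12), SYT12 (−0.20), SYT5 (−0.25) and SYT13 (−0.25). The 3 synaptotagmin-like entries, whose proteins bind RAB27 on secretory granules, were all past 2-fold in the values as given. SYTL2 (27.5 and 10.9 FPKM) and SYTL5 (8.57 and 4.20 FPKM) were lower, and SYTL1 was higher, from 1.58 to 3.49 FPKM. Of all entries, 12.1% were at least 2-fold lower and 7.96% at least 2-fold higher. SYTL5 and SYTL1 lost the call under another constant or scaling.

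Among the proteins of the vesicle itself, SYN1 had the lowest log2 ratio of all 74 entries. Synapsins tether vesicles in the reserve pool, and SYN1 had 30.4 FPKM in No-SCI and 6.50 FPKM in SCI, a log2 ratio of −2.22 or 4.67-fold lower. SYN2 had 3.88 and 2.78 FPKM, and SYN3 had 5.31 and 2.46 FPKM. The most abundant synapsin was the one with the largest ratio between the groups, and SYN1 went from rank 4694 of all entries in No-SCI to rank 9064 in SCI. SYP, the gene of the vesicle membrane protein synaptophysin, had 7.37 FPKM in No-SCI and 2.37 FPKM in SCI, which is 3.10-fold lower. Its broadly expressed relative SYPL1 had 25.8 and 20.4 FPKM, a log2 ratio of −0.33. The SV2 glycoproteins, the vesicle receptors of several botulinum toxins, were all lower in SCI but within 2-fold, with 10.2 and 7.32 FPKM for SV2A, 5.74 and 2.91 FPKM for SV2B and 2.24 and 1.55 FPKM for SV2C.

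Vesicle SNAREs were split, and the VAMP family held both the second lowest and the highest log2 ratio of all members. VAMP1, a synaptobrevin that serves release at neuromuscular junctions, had 81.8 FPKM in No-SCI and 21.5 FPKM in SCI, a log2 ratio of −1.92 or 3.80-fold lower. VAMP2 had 251 and 128 FPKM, a log2 ratio of −0.97 that falls just short of 2-fold. VAMP4, which serves traffic between endosomes and the Golgi network, was also past 2-fold lower, with 63.9 and 24.5 FPKM. VAMP3 and VAMP7, which serve recycling endosomes and lysosomes in most cells, had ratios near 0, with 204 and 175 FPKM for VAMP3 and 47.4 and 47.8 FPKM for VAMP7. Opposite to these, VAMP5, first described in muscle, went from 18.5 FPKM in No-SCI to 56.1 FPKM in SCI, which is 3.03-fold higher. VAMP8, an endosomal SNARE that also serves granule release in blood and secretory cells, went from 48.3 to 102 FPKM, which is 2.10-fold higher. Of the 7 entries of the family 4 were lower in SCI and 3 higher, beside 56.3% and 43.7% of all entries. At least 2-fold lower were 2 (28.6%, against 12.1% of all entries), and at least 2-fold higher were 2 (28.6%, against 7.96%). The 3 higher entries were VAMP5, VAMP8 and VAMP7, the last with a ratio near 0. VAMP3 and VAMP4, which also serve other traffic, were among the lower ones, so the direction did not separate synaptic from other VAMPs. VAMP5 moved from rank 6158 of all entries in No-SCI to rank 2944 in SCI, and VAMP8 from rank 3456 to rank 1855, while VAMP1 moved from rank 2294 to rank 5439.

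**Figure D3:**
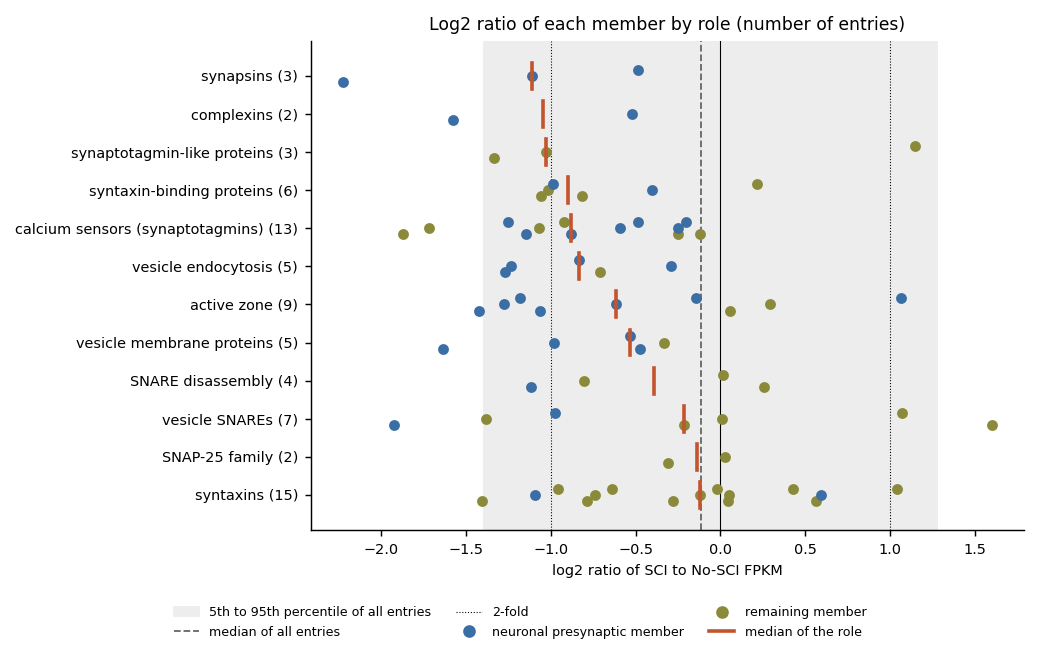
Log2 ratio of SCI to No-SCI FPKM for each member (points) by role, with the number of entries in each role, the median of the role (red bar), the 5th to 95th percentile of all entries (grey) and 2-fold (dotted). All points of the synaptotagmins, synapsins, complexins, vesicle membrane proteins and endocytosis proteins lie below 0, while the syntaxins and vesicle SNAREs spread to both sides.

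The syntaxins, the target membrane SNAREs, had a median log2 ratio of −0.12, and that of all entries was also −0.12 at 2 decimals. Of the 15 syntaxin entries 9 were lower and 6 higher, beside 56.3% and 43.7% of all entries. STX1A, a syntaxin of nerve terminals, had 8.07 FPKM in No-SCI and 12.2 FPKM in SCI, a log2 ratio of 0.59. STX3, a syntaxin of apical membranes and ribbon synapses, went from 12.6 to 25.9 FPKM, which is 2.06-fold higher. The late endosomal STX7 has 2 entries, both lower in SCI, with 76.6 and 28.9 FPKM in the larger and 15.1 and 7.78 FPKM in the smaller. STX8, its usual partner in late endosome fusion, was higher in SCI, with a log2 ratio of 0.43. The reference annotation lists pseudogenes of STX8, STXBP3 and SYPL1, and how reads shared with such copies were counted is not given in the sources used here, so the levels of these genes are less certain. STX4, the plasma membrane syntaxin of regulated exocytosis outside synapses, had 73.7 and 76.3 FPKM, and STX18, of the endoplasmic reticulum, had 44.8 and 44.1 FPKM. Of the SNAP-25 family, SNAP29 had 18.8 and 15.2 FPKM and SNAP47 had 56.1 and 57.2 FPKM, both within 2-fold.

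Among proteins that bind syntaxins and SNARE complexes, 5 of 6 syntaxin-binding entries and 2 of 2 complexins were lower in SCI. Of the 4 entries for NSF and its adaptors, 2 were lower and 2 higher. Of all entries, 56.3% were lower and 43.7% higher. STXBP3 (19.9 and 9.55 FPKM) and STXBP4 (15.0 and 7.41 FPKM) were just past 2-fold, and each lost that call under another constant or scaling. These 2 of the 6 syntaxin-binding entries make 33.3%, against 12.1% of all entries. STXBP6, the most abundant of the 6, had 44.01 and 25.0 FPKM. STXBP2, which serves granule release in immune cells, was the entry of this family with a higher value, 12.9 FPKM in No-SCI and 15.03 FPKM in SCI. The complexins differed from each other. CPLX1 had 61.9 FPKM in No-SCI and 20.8 FPKM in SCI, which is 2.98-fold lower, and CPLX2 had 87.2 and 60.9 FPKM, a log2 ratio of −0.52. NSF, the ATPase that separates SNARE complexes, had 16.5 and 9.44 FPKM. Among its adaptors, the neuronal NAPB had 7.23 and 3.33 FPKM, a log2 ratio of −1.12. The general adaptors were near or above 0, with 157 and 159 FPKM for NAPA and 74.6 and 89.2 FPKM for NAPG.

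Of 9 active zone and priming entries, 4 were at least 2-fold lower in SCI (44.4%, against 12.1% of all entries). Another 1 was at least 2-fold higher (11.1%, against 7.96% of all entries). RIMS2, a scaffold that binds vesicles through RAB3, was the most abundant at 184 FPKM in No-SCI and had 68.5 FPKM in SCI, a log2 ratio of −1.42 or 2.68-fold lower. A gene-level FPKM does not separate linear from circular transcripts of a gene, so these values cannot be assigned to either form of RIMS2 or SYN1. RIMS3 had 3.85 and 1.84 FPKM, while RIMS4, a short relative of RIMS3, went from 2.61 to 5.46 FPKM and was the only neuronal presynaptic member at least 2-fold higher. PCLO, the gene of Piccolo, had 8.55 and 3.54 FPKM, and UNC13C, a Munc13 isoform that primes vesicles, had 14.1 and 6.20 FPKM. UNC13B was within 2-fold at 11.6 and 7.54 FPKM, as was the non-neuronal UNC13D at 4.03 and 4.94 FPKM. The ELKS scaffolds differed little between the groups, with 71.7 and 74.6 FPKM for ERC1 and 47.0 and 42.5 FPKM for ERC2. Within the active zone list the 4 entries at least 2-fold lower were thus RIMS2, RIMS3, PCLO and UNC13C.

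All 5 members that retrieve vesicle membrane were lower in SCI, as were 56.3% of all entries. SNAP91, the gene of the clathrin adaptor AP180, had 90.6 FPKM in No-SCI and 37.7 FPKM in SCI, a log2 ratio of −1.27. SYNJ1, the lipid phosphatase that uncoats vesicles, had 83.9 and 35.6 FPKM, a log2 ratio of −1.24. DNM1, the neuronal dynamin, was closest to the median of all entries with 29.0 and 23.7 FPKM, and AMPH had 7.86 and 4.41 FPKM. BIN1 had a log2 ratio of −0.71.

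Ratios between related members within a group do not depend on how the groups were scaled to each other. CPLX1 had 0.710 times the level of CPLX2 in No-SCI and 0.341 times in SCI, and SYN1 had 7.82 and 2.34 times the level of SYN2. The order of the pair turned for VAMP1 and VAMP8, at ratios of 1.69 and 0.212, and for VAMP2 and VAMP3, at 1.23 and 0.728. In each of these pairs the ratio of the first gene to the other was smaller in SCI, and likewise for the neuronal NAPB against NAPA (0.0459 and 0.0209) and SYP against SYPL1 (0.286 and 0.116). ERC2 against ERC1 shifted least, from 0.655 to 0.569. These pairs were chosen after the values were seen.

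**Figure D4:**
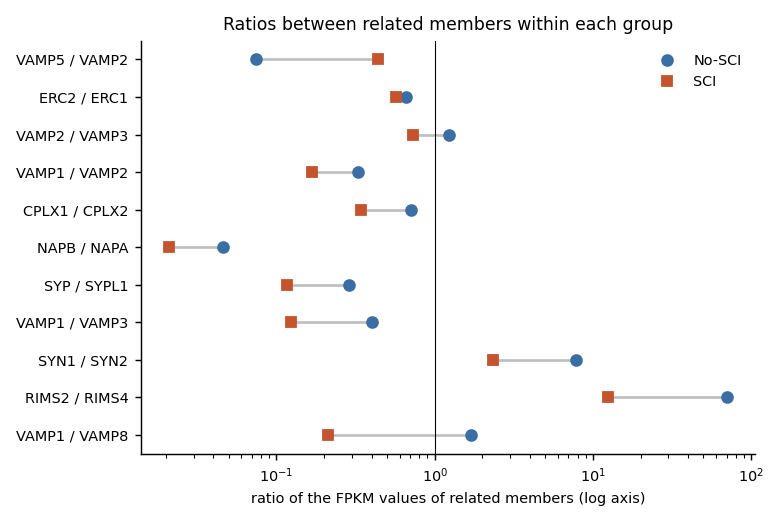
Ratio of the FPKM values of related members in No-SCI (blue circles) and SCI (red squares) on a log axis, with a line at 1. The ratio crosses 1 for VAMP1 over VAMP8 and VAMP2 over VAMP3, and ERC2 over ERC1 moves least.

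Other presynaptic genes, listed by function, were set beside the members. Of 53 such genes 44 had values, 31 lower and 13 higher in SCI, beside 56.3% and 43.7% of all entries. At least 2-fold lower values were found for 10 (22.7%, against 12.1% of all entries). At least 2-fold higher values were found for 3, beside 7.96% of all entries. The median log2 ratio of the 44 was −0.50. The 3 most abundant in No-SCI were SNCG, the gene of gamma-synuclein, with 956 FPKM in No-SCI and 295 FPKM in SCI, SNAPIN, which binds SNAP-25 proteins, with 486 and 274 FPKM, and the broadly expressed dynamin DNM2 with 356 and 192 FPKM. The vesicle GTPases that RIM proteins bind were divided. RAB3A, the prevailing form at synapses, had 21.9 FPKM in No-SCI and 9.34 FPKM in SCI, while RAB3B had 40.2 and 504 FPKM and RAB3C had 8.51 and 23.4 FPKM. The presynaptic adhesion gene NRXN3 went from 64.98 to 12.3 FPKM. The other genes at least 2-fold lower were SNCB, LIN7B, SYNGR3, APBA2, CASK, RIMBP2 and PPFIA4, with log2 ratios from −1.64 to −1.01. The vesicular transporters SLC17A6, SLC17A7, SLC32A1 and SLC18A3, which load glutamate, GABA or acetylcholine, were all under 6 FPKM in both groups.

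Markers of the cells that a spinal cord sample can hold also differed between the groups. Of all entries, 56.3% were lower in SCI. Of 16 neuronal markers 14 had values, 12 of them lower in SCI. SYT1, which is also a member, is among these 12, so this list is not separate from the members. The neuronal markers had a median log2 ratio of −0.73, and their summed level was 4460 FPKM in No-SCI and 2866 FPKM in SCI. Most of the sum came from MAP2 with 2140 and 860 FPKM and GAP43 with 1275 and 1406 FPKM. GAP43 and NEFH were the 2 with higher values in SCI. Those of oligodendrocytes (13 of 14 with values, 11 lower) had a median log2 ratio of −1.53 and summed to 52688 and 30355 FPKM, most of it from MOBP with 44200 and 27648 FPKM. Those of astrocytes (8 of 13, 7 lower) had a median log2 ratio of −1.36 and summed to 14090 and 8971 FPKM, most of it from NDRG2 with 8001 and 3228 FPKM and GLUL with 5858 and 5624 FPKM. Microglia and macrophage markers (13 of 13, 7 lower) summed to 1247 and 1423 FPKM, endothelial markers (7 of 9, 3 lower) to 49.8 and 71.6 FPKM, and blood markers (5 of 8, 3 lower) to 545 and 609 FPKM, with median log2 ratios of −0.05, 0.17 and −0.08. All 13 meningeal fibroblast markers were higher in SCI, with a median log2 ratio of 2.56 and sums of 91.8 and 1038 FPKM. Of 13 skeletal muscle markers 11 had values, of which MYH1 and MYH2 share 1 pair of values, and counted once these made 10 markers, all lower, with a median log2 ratio of −2.73 and sums of 447 and 58.2 FPKM. The lowest value in the table is 1, so no marker with a value could be at 0. The neuronal markers SNAP25 and NEFM were not analysed here. The part of these marker differences in the values of the members was not tested, and in such samples less RNA per cell and a smaller contribution from a cell type cannot be told apart.

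The promoter sequences of the members were searched for 10 motifs or forms of a motif, 7 of them forms of RE1, the element bound by the repressor REST. The one shown here, which the CREB family of transcription factors binds, was chosen from these after its matches and the members' ratios were seen. The RefSeq windows of 250 bases before to 50 after each start (build GRCr8) matched 58 of the 73 symbols, in 72 windows. The cyclic AMP response element TGACGTCA, which reads the same on both strands, was in 3 of the 72 member windows (4.17%), those of NAPA, SYN1 and VAMP1, and in 1.83% of all 33469 windows. SYN1 and VAMP1 are the members with the lowest log2 ratios, while that of NAPA was 0.02. The sites are shown with 10 bases on each side and the element in capitals, in the direction of the gene. They start 190 bases before the start of SYN1, 71 before that of VAMP1 and 59 before that of NAPA.
SYN1: aaaggcgggcTGACGTCActctccagcc
VAMP1: ctggagatttTGACGTCAtccacgaggc
NAPA: cagacccgggTGACGTCAacgtagcggg
Of the other motifs, searched on both strands, the E-box CACGTG was in 6 member windows (8.33%, against 6.42% of all windows), the TATA box TATAAA in 6 (8.33%, against 14.2%) and the RE1 fragment GCTGTCC in 6 (8.33%, against 6.59%), and the other forms of RE1 are not given. The matches describe the letters of these windows, and no binding was measured. With 3 matches and a motif picked from 10, nothing about the ratios is read from them.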

How the data were processed

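Before deposit the authors reduced every library to the same number of reads, mapped these with STAR 2.5.4b on rn6 and its Ensembl annotation, and estimated group values with Cuffdiff (cufflinks 1.3.0) and upper quartile normalization. Their deposited FPKM values, 1 per group, were used as given. The lowest value in the table is 1. The deposited p-value, q-value, fold change and log2 columns hold the authors' own comparison and were not used. All columns of values had a group, so 0 were left without one. Each SCI value was divided by its No-SCI value and the quotient put on the log2 scale with no pseudocount, and counts past 2-fold, medians and sums were taken. Without values for each library, no test, standard deviation or interval could be given. All 73 member symbols matched GRCr8 symbols. That build differs from rn6, so no coordinates are given. Values of some single genes are not reported here, though counts and medians include them.

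The members and gene lists were chosen with earlier results of these data known. Values are given for the most abundant member of each role, members past 2-fold with a mean of at least 2 FPKM, and central members of each role. Other members named, and the pairs of related members, were chosen after their values were seen, as was the promoter motif shown, from 10 tried. The ratio and count steps were tested on simulated data. Python 3.11.15, numpy 2.4.6, pandas 2.3.3 and matplotlib 3.10.9 were used. Alternatives were a pseudocount, 3 scalings, a filter on low values, other fold minimums, means, and 2 chosen after seeing the data, namely 1 subtracted from every value and STX7 counted once.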

Additional observations from a re-analysis of the deposited data

How the results depend on the processing

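The number of members at least 2-fold different depends on the constant and on the fold chosen. With 1 added to every value it was 19 in place of 29 (17 lower and 2 higher). With a minimum of 1.3-fold it was 53 (45 lower and 8 higher), and with 3-fold it was 6 (5 lower and 1 higher). Under median centring, equal totals, equal upper quartiles, the filter at a mean of 2 FPKM, 1 subtracted from every value and STX7 counted once, the count ran from 22 to 36, within 1.5 times the reported 29. The number of members lower in SCI ran from 55 (of the 72 entries left by the filter) to 57 over all alternatives. The 3 scalings moved every log2 ratio up by 0.05 to 0.12. The median log2 ratio ran from −0.73 to −0.51 for all members, from −1.19 to −0.83 for the neuronal presynaptic members and from −0.33 to −0.15 for the remaining members, and none of these medians changed sign. Of the 29 symbols past 2-fold, 18 stayed past it under every constant, scaling and filter that gave them a value, and 11 (among them NAPB, RIMS3, RIMS4, STX3, STXBP3, STXBP4, SYN3, SYT16, SYTL1 and SYTL5) did not. STX18 was the only member whose sign changed, under each of the 3 scalings. Because no values exist for single libraries, no library could be left out, no value could be set against a spread between animals, and no paired analysis was possible because the table carries no replicate.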
